A study of Mus musculus with 62 samples.

Results

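The Serpina3 genes are a cluster of serine protease inhibitors on mouse chromosome 12, and 7 of them, Serpina3c, Serpina3f, Serpina3g, Serpina3i, Serpina3k, Serpina3m and Serpina3n, were followed here through RNA sequencing of white adipose tissue. They were taken by name from a table of 47643 gene symbols, 14 of which begin with Serpina3, singly and as a sum. The genes were chosen by their high TPM in fat of mice with cachectic tumours against mock fat at 6 and 8 weeks, so that comparison is given below as a description. Female mice 2 months of age were given cachectic melanoma cells (CAC), non-cachectic ones (NCAC) or a mock injection (Con), and fat was taken 2, 4, 6 or 8 weeks later. Each of the 12 groups held 5 libraries, apart from CAC at 8 weeks with 7, which gives 62 libraries, and the labels call them biological replicates. Arms were read from the sample descriptions, because the treatment tag of all 62 samples, mock ones included, names the cachectic cells. The series text gives the mice as NCI Ath/nude, an athymic strain that lacks normal T cell development, whereas the strain tag of the samples reads C57BL6/J. That conflict was not settled, and the fat depot, the site of injection and the melanoma lines were not given in the sources used here. An extraction protocol shared by all samples speaks of LLC cells and a time of 3 weeks, which no sample carries.

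Cachexia is the wasting of fat and muscle that accompanies some tumours. Serpins present a flexible reactive centre loop as bait to a protease, which cuts the loop and is then trapped in a covalent complex, so the bases that encode the loop set which protease is caught. Mice carry a cluster of Serpina3 genes where humans have a single gene, SERPINA3, which encodes the plasma protein alpha-1-antichymotrypsin. In the liver these genes belong to the acute phase response, the rise in plasma proteins that follows inflammation and is driven by interleukin-6, STAT3 and glucocorticoids.

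All 7 genes lie on chromosome 12 of build GRCm38 (the mm10 genome) in the GENCODE M21 annotation. Serpina3c spans chr12:104146382-104153870 on the minus strand. The other members lie on the plus strand: Serpina3f at chr12:104214544-104221129, Serpina3g at chr12:104236245-104241939, Serpina3i at chr12:104263122-104269372, Serpina3k at chr12:104338486-104346144, Serpina3m at chr12:104338486-104394257 and Serpina3n at chr12:104406729-104414329. The gene models of Serpina3k and Serpina3m start at the same base, and the shorter one lies inside the longer one. Each member is annotated as protein coding. The annotated coding sequence of Serpina3g was 744 bases long, against 1224 to 1335 bases in the other members.

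The loop-coding stretch is shown for each member because it determines the protease that is bound. The other copies also differ more from Serpina3n there than in the coding sequence before it, and no other stretch was compared. The loop-coding stretch runs from the hinge of the loop to the end of the conserved strand that follows. It lies in the last coding exon (exon 5, or exon 6 in Serpina3f and Serpina3i) and was read from the GRCm38 genome. Positions were chr12:104413448-104413537 in Serpina3n, chr12:104147307-104147387 on the minus strand in Serpina3c, chr12:104345269-104345352 in Serpina3k and chr12:104393769-104393858 in Serpina3m. They were chr12:104268480-104268569 in Serpina3i, chr12:104241072-104241161 in Serpina3g and chr12:104220245-104220337 in Serpina3f. Each sequence is written 5′ to 3′ on the coding strand, and capitals mark bases that differ from Serpina3n in the alignment.
Serpina3n: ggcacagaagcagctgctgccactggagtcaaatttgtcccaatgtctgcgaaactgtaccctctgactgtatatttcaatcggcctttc
Serpina3c: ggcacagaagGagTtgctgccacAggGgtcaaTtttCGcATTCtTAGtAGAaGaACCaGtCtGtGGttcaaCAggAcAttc
Serpina3k: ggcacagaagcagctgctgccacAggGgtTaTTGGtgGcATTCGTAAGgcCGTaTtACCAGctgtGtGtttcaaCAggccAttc
Serpina3m: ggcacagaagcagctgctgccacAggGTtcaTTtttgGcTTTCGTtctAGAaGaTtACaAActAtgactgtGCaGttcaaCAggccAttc
Serpina3i: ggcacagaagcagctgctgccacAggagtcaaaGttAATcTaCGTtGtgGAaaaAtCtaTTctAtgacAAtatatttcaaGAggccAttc
Serpina3g: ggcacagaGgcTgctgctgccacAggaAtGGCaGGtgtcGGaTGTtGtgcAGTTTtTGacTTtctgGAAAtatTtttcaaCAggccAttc
Serpina3f: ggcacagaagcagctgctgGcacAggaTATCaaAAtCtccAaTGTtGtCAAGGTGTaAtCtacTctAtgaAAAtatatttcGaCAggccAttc
Against Serpina3n, identity in this stretch was 63.0% of aligned bases for Serpina3c, 63.1% for Serpina3k, 64.4% for Serpina3g, 66.7% for Serpina3f, 68.9% for Serpina3m and 75.6% for Serpina3i. Upstream of the loop, the same 6 genes were 85.4% (Serpina3k) to 89.6% (Serpina3g) identical to Serpina3n. For Serpina3g the stretch compared was shorter, because its annotated coding sequence has only 744 bases. Over the whole coding sequence, the members closest to each other were Serpina3k and Serpina3m at 91.7%, followed by Serpina3f and Serpina3i at 91.2%. Serpina3g and Serpina3k had the lowest identity, 80.2%, but over only 642 aligned bases. Serpina3f and Serpina3k were 80.4% identical over 1218 aligned bases, so these values do not rest on the same stretch.

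How far reads could be told apart was described by cutting each transcript into all windows of 100 or 50 bases and looking for each window in the transcripts of every other gene. None of the windows of 100 bases in Serpina3c was shared, and 0.204% of those in Serpina3n were. Shares at 100 bases were 2.33% in Serpina3i, 3.58% in Serpina3f, 4.64% in Serpina3g, 4.85% in Serpina3k and 6.09% in Serpina3m. At 50 bases they lay between 4.25% (Serpina3c) and 19.1% (Serpina3m), and 6.90% of those in Serpina3n were shared. Most shared windows of Serpina3m (16.0% of all its windows of 50 bases) were shared with Serpina3k. The copies were therefore less alike in their transcripts than the name of near-identical copies implies. Read length and counting tool were not given in the sources used here, so the split of reads between Serpina3k and Serpina3m, and among Serpina3f, Serpina3g and Serpina3i, is uncertain, and values of single members are given beside their sum.

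**Figure D1:**
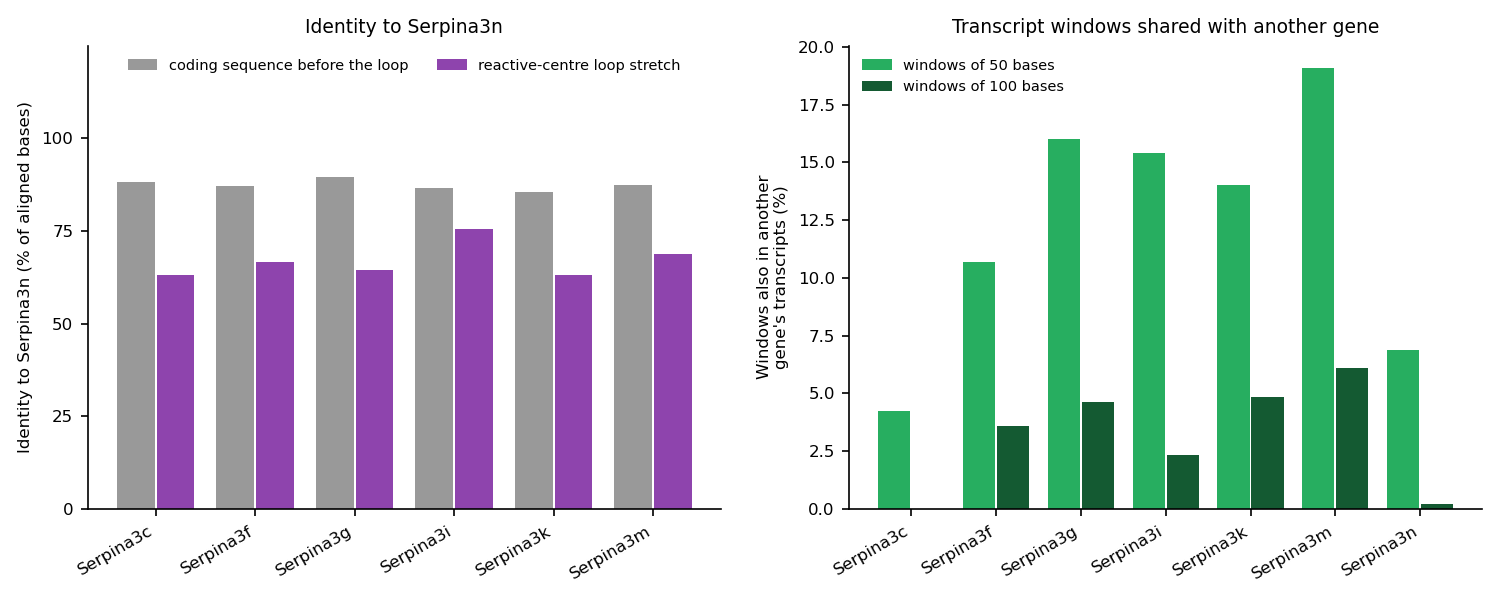
Left, the share of aligned bases (%) identical to Serpina3n in the coding sequence before the reactive centre loop (grey) and in the loop stretch (purple) for the other 6 members. Right, the share (%) of transcript windows of 50 bases (light green) or 100 bases (dark green) that also occur in a transcript of another gene. Purple bars lie between 63.0% and 75.6% and grey bars between 85.4% and 89.6%, and Serpina3m has the highest share of shared windows.

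Of the adipocyte markers, the adipokine Adipoq stood between 1789 and 6978 TPM and the fatty acid carrier Fabp4 between 12529 and 38514 TPM in the 62 libraries. Lep, which encodes the hormone leptin, ranged from 0.0212 to 1670 TPM; its mean was 20.01 ± 23.7 TPM in CAC and 232 ± 295 TPM in NCAC fat at 6 weeks (SD, n = 5 each), a difference that was not called (limma adjusted p = 0.0794). TPM is a level of transcripts corrected for gene length. Each library sums to 1000000 TPM, so read depth cannot be known from the values. Between 17.2% and 44.5% of the TPM of a library came from mitochondrially encoded genes, and between 11783 and 14470 genes reached 1 TPM. Markers of urothelium, the lining of the bladder, were present unevenly: the sum of Upk1a, Upk1b, Upk2, Upk3a and Krt20 ran from 1.92 to 501.6 TPM (median 20.9). Markers of liver, where the Serpina3 genes are best known, summed to 3.64 to 351.5 TPM (8 genes, median 12.9), and Cyp3a11 was at 0 in 45 libraries and Ttr in 28. The sum of 6 T and NK cell markers stayed under 40 TPM at 6 and 8 weeks, with a highest value of 35.9 TPM in an NCAC library.

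Serpina3n, a secreted inhibitor of granzyme B, neutrophil elastase and cathepsin G, was the most abundant member. It made up 69.4% ± 7.83 (SD, n = 62) of the summed TPM of the 7 genes. In the 40 mock and NCAC libraries of all weeks it ranged from 71.3 to 484.9 TPM (median 232.6). CAC fat at 6 weeks held 3294, 1783, 2231, 1886 and 1031 TPM in replicates 1 to 5. At 8 weeks the 7 CAC libraries held 3737, 3697, 295.4, 1938, 1305, 3919 and 1697 TPM. All but 1 of these 12 libraries lay above all 40 mock and NCAC libraries, and the exception was CAC replicate 3 at 8 weeks. The cluster was chosen with its high level in CAC fat at these weeks known, which favours such a separation. The share of all genes that separate these 12 from the 40 was not computed. Such counts, here and below, are therefore a description, and nothing is read from them. The group means were 2045 ± 824 TPM (SD, n = 5) at 6 weeks and 2370 ± 1421 (SD, n = 7) at 8 weeks in CAC fat, against 213.8 ± 73.5 and 189.7 ± 113 TPM (SD, n = 5 each) in mock fat and 191.4 ± 116 and 222.1 ± 75.0 TPM (SD, n = 5 each) in NCAC fat. Since these are whole tissue libraries, more cells of a type and more RNA per cell cannot be told apart, here and below.

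Serpina3c was second in abundance, with 22.4% ± 7.82 (SD, n = 62) of the sum. It ranged from 33.3 to 210.6 TPM (median 80.2) in the 40 mock and NCAC libraries. CAC fat held 398.4, 210.7, 262.1, 220.4 and 200.3 TPM at 6 weeks and 472.5, 393.6, 77.1, 372.2, 143.5, 513.0 and 205.5 TPM at 8 weeks. Here 8 of the 12 late CAC libraries lay above all 40. The share of Serpina3c in the sum was lower in CAC fat at 8 weeks (11.3% ± 3.49, SD, n = 7) than in NCAC (28.6% ± 4.02, SD, n = 5) or mock fat (25.2% ± 8.24, SD, n = 5) of the same week, and no test was run on these shares.

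Serpina3k, the trypsin inhibitor also called contrapsin, and its neighbour Serpina3m stood much lower in mock and NCAC fat. Serpina3k ranged from 0.853 to 35.3 TPM (median 9.86) in the 40 mock and NCAC libraries. In CAC fat it held 163.9, 62.3, 61.0, 100.7 and 203.7 TPM at 6 weeks and 511.8, 96.2, 44.9, 135.3, 112.0, 604.8 and 167.8 TPM at 8 weeks, so all 12 libraries lay above all 40. Serpina3m ranged from 1.41 to 11.0 TPM (median 4.28) in the 40. It held 84.0, 64.9, 69.7, 51.6 and 48.3 TPM in CAC fat at 6 weeks and 171.3, 90.0, 7.48, 59.4, 59.2, 187.4 and 74.1 TPM at 8 weeks, and 11 of the 12 lay above all 40. The exception was again CAC replicate 3 at 8 weeks.

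Serpina3i was low in fat without cachexia, with 0.0574 to 1.54 TPM (median 0.455) in the 40 mock and NCAC libraries. In CAC fat it held 16.0, 6.01, 5.09, 8.25 and 4.71 TPM at 6 weeks and 18.5, 20.9, 2.11, 11.1, 3.56, 17.1 and 6.19 TPM at 8 weeks. All 12 lay above all 40.

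Serpina3g and Serpina3f did not share this pattern. Serpina3g, an intracellular inhibitor of cathepsin B known from activated T cells and macrophages, ranged from 1.87 to 22.6 TPM (median 4.84) in the 40 mock and NCAC libraries and from 2.17 to 11.4 TPM (median 4.96) in the 12 late CAC libraries, none of which lay above all 40. Its highest group means were those of mock fat, 8.66 ± 5.66 TPM at 8 weeks and 7.57 ± 8.43 TPM at 6 weeks (SD, n = 5 each). Serpina3f, the least abundant member, ranged from 0.0260 to 0.796 TPM (median 0.175) in the 40 and from 0.134 to 1.06 TPM (median 0.360) in the 12. Only 1 of the 12 Serpina3f values lay above all 40.

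**Figure D2:**
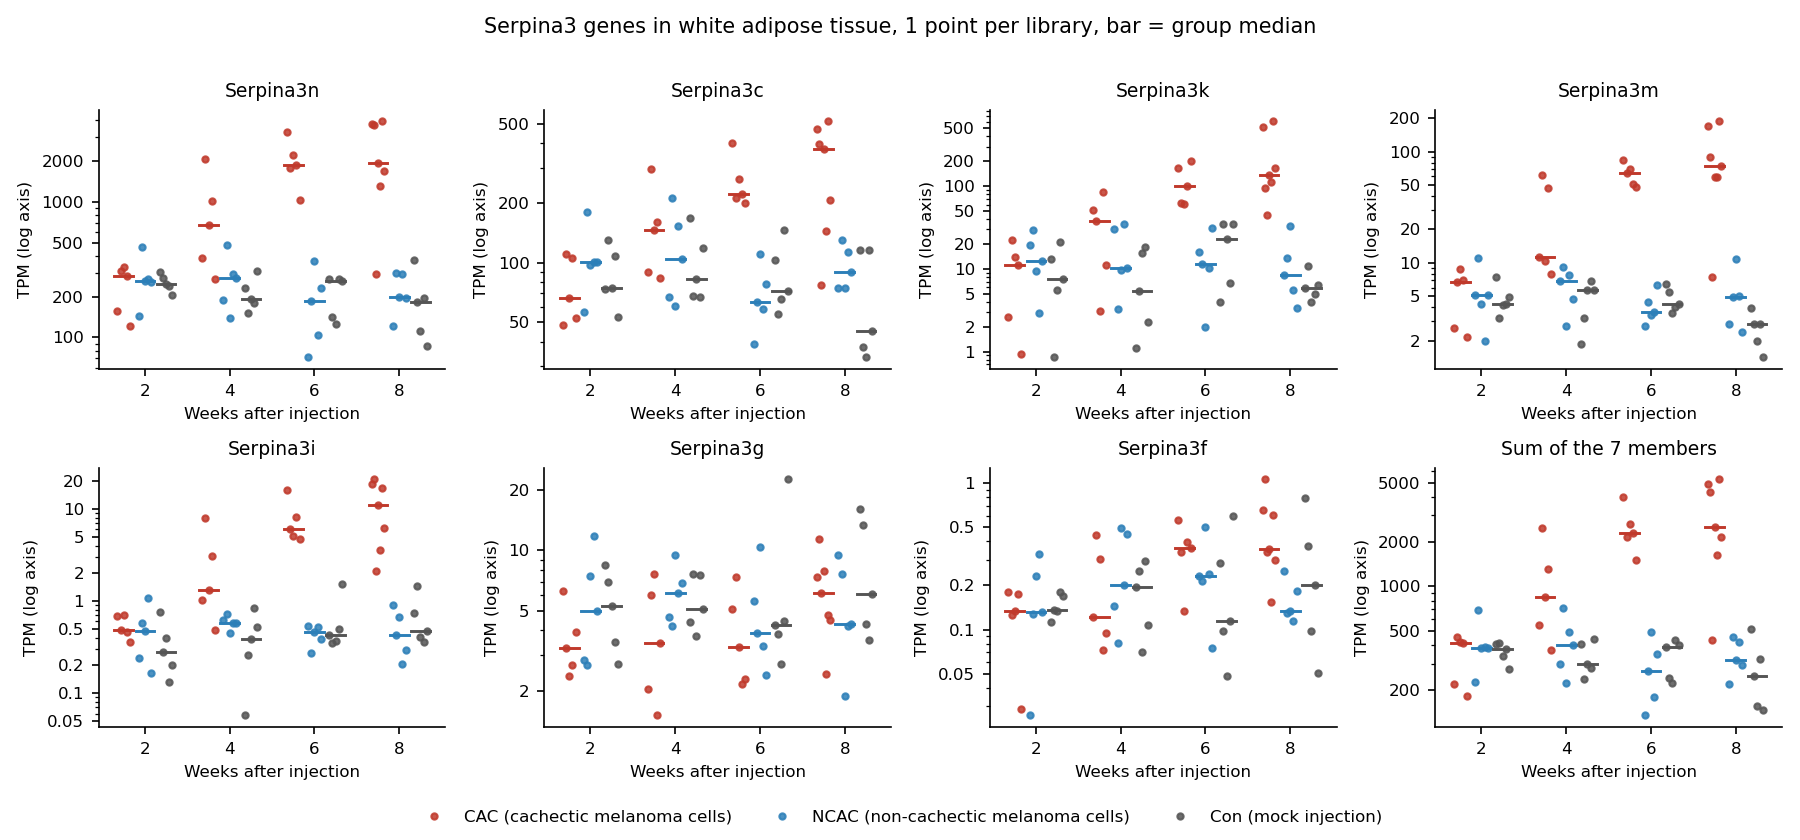
TPM (log axis) of each member and of their sum in 62 libraries against weeks after injection, with CAC in red, NCAC in blue and mock in grey; each point is a library and each short bar a group median. The red points of Serpina3n, Serpina3k, Serpina3m and Serpina3i stand apart from blue and grey at 6 and 8 weeks except for CAC replicate 3 at 8 weeks in Serpina3n (295.4 TPM) and Serpina3m (7.48 TPM), and Serpina3g shows no such gap.

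Ordered by group mean, CAC at 8 weeks, CAC at 6 weeks and CAC at 4 weeks were the highest 3 of the 12 groups for Serpina3n, Serpina3c, Serpina3k, Serpina3m and Serpina3i. In each of these 5 genes the gap between the groups at 8 and 6 weeks was smaller than the larger SD of the pair, and the gap between 6 and 4 weeks was larger. For Serpina3n the means at 4 and 2 weeks were 882.3 ± 720 and 240.4 ± 94.1 TPM (SD, n = 5 each), and that of CAC at 2 weeks ranked seventh. The 9 lower group means of Serpina3n, from 189.7 to 279.6 TPM, did not differ from their neighbours in the order by more than the SD. For Serpina3g and Serpina3f no neighbouring pair of group means differed by more than the SD.

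At 2 weeks, CAC fat did not stand out. CAC against mock gave no called member of the 6 tested, where a gene is called at an adjusted p under 0.05 over all genes in limma, a linear model with a moderated variance. Serpina3f was not tested, because its mean of 0.250 TPM over the 62 libraries was below the filter of 0.5 TPM. In that comparison 0.00686% of all genes were called. Log2 differences, here and below of TPM + 1, ran from -0.41 (Serpina3g) to 0.20 (Serpina3i), and no member had an unadjusted p under 0.05. CAC against NCAC at 2 weeks called 0 members and 0% of all genes, with log2 differences from -0.70 (Serpina3k) to 0.06 (Serpina3i). The limma intervals were wide for Serpina3k, whose 95% interval against NCAC ran from -2.32 to 0.91.

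At 4 weeks the CAC libraries were spread out. Serpina3n held 388.7, 2063, 674.5, 1018 and 267.8 TPM in replicates 1 to 5, against 152.1 to 311.1 TPM in mock fat and 139.6 to 484.9 TPM in NCAC fat. Serpina3m held 11.4, 61.7, 10.4, 47.1 and 8.02 TPM, all above the 5 mock libraries (1.86 to 6.90 TPM). Replicates 2 and 4 were the highest for Serpina3n, Serpina3m and Serpina3i, and replicate 5 was the lowest. Against mock the log2 difference was 1.72 (SE 0.48) for Serpina3n, 1.96 (SE 0.56) for Serpina3m, 1.12 (SE 0.42) for Serpina3i, 1.85 (SE 0.89) for Serpina3k, 0.55 (SE 0.36) for Serpina3c and -0.50 (SE 0.34) for Serpina3g. With limma 0 of 6 members were called, each at an adjusted p of 1.0, and 3 of 6 had an unadjusted p under 0.05 (Serpina3n, Serpina3m and Serpina3i). Over all genes 0.00686% were called, and 405 of 14576 had an unadjusted p under 0.05. Against NCAC 0 members and 0% of genes were called, with 1.43 (SE 0.52) for Serpina3n and 1.60 (SE 0.56) for Serpina3m. The same 3 members had an unadjusted p under 0.05 in limma, beside 648 of all 14576 genes.

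At 6 weeks, 5 of the 6 tested members were higher in CAC than in NCAC fat, which asks whether a melanoma that causes wasting differs from one that does not. Across all genes 4.94% were called higher in this comparison, and 123 genes were called lower. The CAC libraries are those in which the members were already known to be high, so these p-values are no independent support for that level. Serpina3m rose by 3.68 log2 units (SE 0.20, adjusted p = 4.94e-06 in limma). Serpina3n rose by 3.54 (SE 0.44, adjusted p = 0.00278 in limma), a ratio of group means of 10.7. For Serpina3k the rise was 3.16 (SE 0.59, limma adjusted p = 0.0177), for Serpina3i 2.53 (SE 0.27, adjusted p = 0.000864) and for Serpina3c 1.91 (SE 0.27, adjusted p = 0.00412). In each of these 5 genes all 5 CAC libraries lay above all 5 NCAC libraries, as they did in 6.88% of all genes tested. Serpina3g differed by -0.25 (SE 0.36, 95% interval -1.03 to 0.54, limma adjusted p = 0.696).

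Serpina3k was the least stable of the 5 at 6 weeks and lost its call without NCAC replicate 2 (limma adjusted p = 0.0519). The urothelium markers also differed: their sum was 501.6, 348.3, 30.9, 5.46 and 155.5 TPM in CAC replicates 1 to 5 and 6.77 to 36.0 TPM in NCAC fat, where 3 of 5 markers had a mean under 0.5 TPM, and Upk1a, Upk3a and Krt20 were called higher in CAC. With that sum as a covariate 3 members were called (Serpina3m, Serpina3i and Serpina3n), and with libraries over 100 TPM left out, which leaves 2 CAC libraries, 2 were called (Serpina3m and Serpina3i). The log2 difference of Serpina3n was 3.29 with the covariate and 3.64 without those libraries. CAC replicates 3 and 4, which had low urothelium markers, held 2231 and 1886 TPM of Serpina3n, against 1031 to 3294 TPM in the other 3.

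Against mock fat at 6 weeks, the comparison known when the genes were chosen, log2 differences were 3.49 (SE 0.20) for Serpina3m, 3.23 (SE 0.33) for Serpina3n, 2.69 (SE 0.59) for Serpina3k, 2.38 (SE 0.32) for Serpina3i, 1.58 (SE 0.28) for Serpina3c and -0.48 (SE 0.48) for Serpina3g. Called higher were 4 of 6 members and 0.309% of all genes, and all CAC libraries lay above all mock libraries for 5 of 6 members and 1.85% of all genes. Nothing is read from these counts. When single libraries were left out, the call of Serpina3c held without mock replicate 4 or 5 and was lost without any of the other 8.

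At 8 weeks, 4 of the 6 tested members were higher in CAC than in NCAC fat, while 0.343% of all genes were called higher. The members were already known to be high in these CAC libraries too. The p-values and counts of this comparison are therefore no independent support for that level. Serpina3k rose by 3.98 (SE 0.65, limma adjusted p = 0.0224), Serpina3m by 3.60 (SE 0.64, adjusted p = 0.0334), Serpina3n by 3.11 (SE 0.56, adjusted p = 0.0358) and Serpina3i by 2.75 (SE 0.46, adjusted p = 0.0243). Serpina3c differed by 1.46 (SE 0.43, limma adjusted p = 0.114) and Serpina3g by 0.22 (SE 0.35, 95% interval -0.54 to 0.97, adjusted p = 0.841). All 7 CAC libraries lay above all 5 NCAC libraries for Serpina3k and Serpina3i, as they did for 0.549% of all genes, and 6 of 7 did for Serpina3n, Serpina3m and Serpina3c.

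These calls at 8 weeks lay close to the threshold. The count of 4 was 0 with replicate number as a block and 2 without the filter on low genes. It was 0 without CAC replicate 4 or 7 and without NCAC replicate 1, 2, 4 or 5. It was 1 without CAC replicate 1 or 6, 2 without CAC replicate 2 or 5, and 5 without CAC replicate 3. The highest adjusted p on leaving out a single library was 0.110 for Serpina3n and for Serpina3m, and the log2 difference of Serpina3n stayed between 2.59 and 3.55 over all alternatives. Without CAC replicate 3, whose Serpina3 sum was 433.5 TPM against 1625 to 5247 TPM in the other 6, Serpina3c was called too (limma adjusted p = 0.0150). Urothelium markers summed to 7.68 to 182.5 TPM in CAC fat and 6.48 to 26.1 TPM in NCAC fat. No member was called with that sum as a covariate (log2 difference of Serpina3n 2.59) or without the 3 libraries over 100 TPM (2.98). CAC replicate 2, with 9.99 TPM of urothelium markers, held 3697 TPM of Serpina3n, and CAC replicate 3, with 7.68 TPM, held 295.4 TPM. The part of the bladder lining in the Serpina3 levels was not tested beyond these values.

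Compared with mock fat at 8 weeks, which was also known beforehand, the differences were 4.56 (SE 0.55) for Serpina3k, 4.29 (SE 0.60) for Serpina3m, 3.45 (SE 0.59) for Serpina3n, 2.60 (SE 0.46) for Serpina3i, 2.10 (SE 0.49) for Serpina3c and -0.29 (SE 0.37) for Serpina3g. Called higher were 5 of 6 members and 1.08% of all genes (158), while 290 of the 14577 genes were called lower. All 7 CAC libraries lay above the mock libraries for 3 of 6 members (Serpina3k, Serpina3m and Serpina3i) and 0.906% of all genes. Nothing is read from these counts either.

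**Figure D3:**
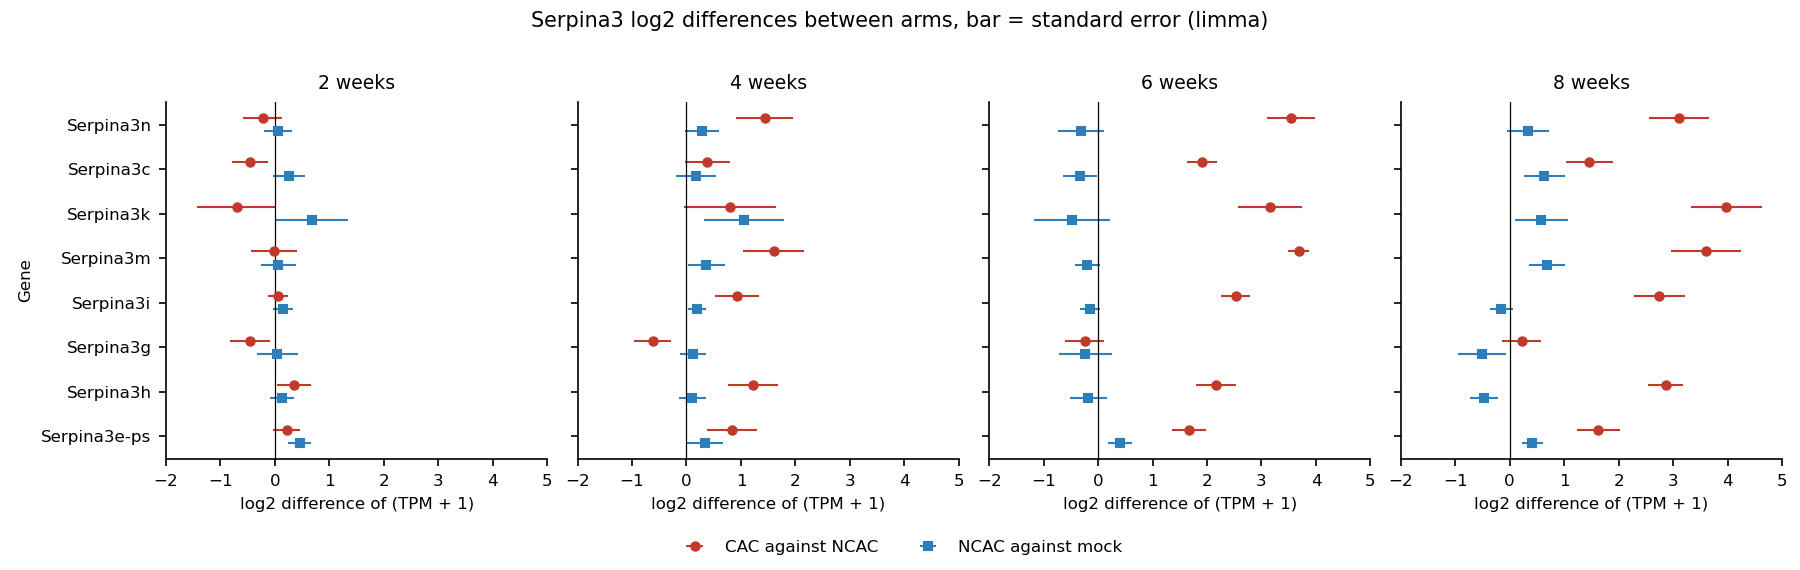
Log2 differences of TPM + 1 with standard errors from limma (x axis) for 6 members and the paralogues Serpina3h and Serpina3e-ps (y axis) at 2, 4, 6 and 8 weeks, for CAC against NCAC (red circles) and NCAC against mock (blue squares). Blue points stay between -0.51 and 1.06, and at 6 weeks the red points of the genes other than Serpina3g lie between 1.67 and 3.68.

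NCAC against mock fat asks what a melanoma without wasting does to these genes, and no difference could be detected. It called 0 of 6 members and 0% of all genes at 2, 4, 6 and 8 weeks in limma. No member had an unadjusted p under 0.05 in any week, while 234, 115, 205 and 181 of all genes did. Log2 differences of Serpina3n were 0.05 (SE 0.26), 0.28 (SE 0.31), -0.31 (SE 0.42) and 0.34 (SE 0.38) at the 4 weeks. The 95% interval for Serpina3n at 8 weeks ran from -0.50 to 1.18, which leaves room for differences of that size. Serpina3k was the least certain, with 1.06 (SE 0.74) at 4 weeks and an interval from -0.58 to 2.69. With library weights, Serpina3c was called in NCAC against mock at 6 weeks.

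The change of the gap between CAC and NCAC with time was fitted as an interaction. It uses the late CAC libraries in which the members were known to be high, so its p-values are favoured by the choice of genes and are no independent support. From 2 to 6 weeks it widened by 3.76 (SE 0.59, limma adjusted p = 0.00480) for Serpina3n, 3.70 (SE 0.48, adjusted p = 0.000825) for Serpina3m, 2.47 (SE 0.34, adjusted p = 0.00132) for Serpina3i and 2.36 (SE 0.44, adjusted p = 0.0124) for Serpina3c. That is 4 of 6 members, against 0.583% of all genes called higher. Serpina3k widened by 3.87 (SE 0.98) without passing (limma adjusted p = 0.0751; 0.0448 without CAC replicate 2 of 2 weeks), and Serpina3g moved by 0.21 (SE 0.54, adjusted p = 0.952). The 4 calls held on leaving out any 1 of the 20 libraries and with the urothelium covariate, and none was called without the libraries over 100 TPM of urothelium markers, where the estimates were 3.64 for Serpina3n, 3.37 for Serpina3m, 2.16 for Serpina3i and 2.44 for Serpina3c. From 2 to 8 weeks 0 of 6 members were called in limma and 0.0617% of all genes were called higher. An unadjusted p under 0.05 was found for 5 of 6 members and 1268 of all 14577 genes. Estimates were as large (3.34, SE 0.73, for Serpina3n) but less precise, and 5 members were called without CAC replicate 3 of 8 weeks (adjusted p = 0.000829 for Serpina3n) and 1, Serpina3i, without CAC replicate 5 of 8 weeks.

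Within the CAC arm, no step from a week to the next passed. The comparison of 4 with 2 weeks called 0 members and 0% of genes, and 6 with 4 weeks likewise called 0 members and 0% of genes. For 8 against 6 weeks, 0 members and 0.00686% of genes were called. Members with an unadjusted p under 0.05 in limma numbered 4, 5 and 0 of 6 in these steps, beside 366, 736 and 233 of all genes. Serpina3n differed by 1.49 (SE 0.51) between 6 and 4 weeks and by -0.06 (SE 0.57) between 8 and 6 weeks. In the control arms, 8 against 2 weeks called 0 members and 0% of genes in mock and in NCAC fat alike. There 1 and 0 members had an unadjusted p under 0.05, beside 564 and 709 of all genes.

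A read placed on the wrong member stays within the sum of the 7, apart from the correction for gene length. One exchanged with a Serpina3 gene outside the 7 does not. Of the windows of 50 bases, 9.21% of those in Serpina3i and 8.67% of those in Serpina3g also occur in Serpina3h. For Serpina3n, 2.68% occur in Serpina3e-ps. The sum was 337.4 ± 127, 1110 ± 841 and 2498 ± 917 TPM (SD, n = 5 each) in CAC fat at 2, 4 and 6 weeks and 3031 ± 1819 TPM (SD, n = 7) at 8 weeks. NCAC fat held 413.3 ± 167, 425.4 ± 190, 285.2 ± 142 and 342.5 ± 96.9 TPM, and mock fat 362.6 ± 57.6, 333.9 ± 87.9, 336.3 ± 97.2 and 277.9 ± 153 TPM (SD, n = 5 each). The log2 difference of the sum between CAC and NCAC was -0.30, 1.18, 3.20 and 2.84 at the 4 weeks, and no test was run on it.

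**Figure D4:**
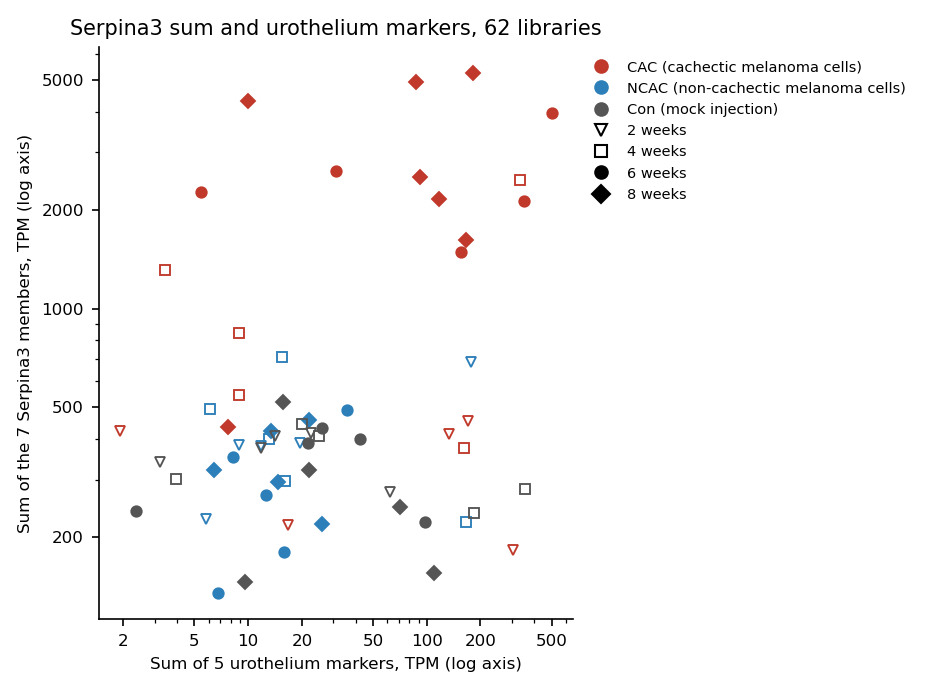
Sum of the 7 Serpina3 members (y axis, TPM, log scale) against the sum of 5 urothelium markers (x axis, TPM, log scale) in 62 libraries, coloured by arm, with open symbols for 2 and 4 weeks and filled symbols for 6 and 8 weeks. Late CAC libraries lie at the top both at low and at high marker sums, from 5.46 to 501.6 TPM, except CAC replicate 3 of 8 weeks, and mock and NCAC libraries with over 100 TPM of markers reach no more than 686.9 TPM of Serpina3.

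The other genes of the cluster were low. Of the 7 other Serpina3 symbols only the transcribed pseudogene Serpina3h and the pseudogene Serpina3e-ps passed the filter. Serpina3h held 5.87 to 35.3 TPM in the 12 late CAC libraries, 11 of which lay above all 40 mock and NCAC libraries (0.656 to 6.87 TPM). It rose by 2.17 (SE 0.36, limma adjusted p = 0.00984) at 6 weeks and by 2.87 (SE 0.32, adjusted p = 0.00202) at 8 weeks in CAC against NCAC, and at 8 weeks this call held on leaving out any 1 of the 12 libraries. It was lost with the replicate block (limma adjusted p = 0.0615), with the urothelium covariate (0.0527) and without the libraries over 100 TPM of urothelium markers (0.0608). Serpina3e-ps rose by 1.67 (SE 0.31, limma adjusted p = 0.0141) at 6 weeks and differed by 1.63 (SE 0.39, adjusted p = 0.0800) at 8 weeks; without CAC replicate 3 or NCAC replicate 3 it was called at 8 weeks too (adjusted p = 0.00331 and 0.0370). Both share transcript windows with members: 24.4% of the windows of 50 bases of Serpina3h and 21.6% of those of Serpina3e-ps occur in another gene, so their levels are uncertain. Serpina3b stood at 0.172 to 5.14 TPM in the late CAC libraries and 0 to 0.617 TPM in the 40, and Serpina3j at 0.225 to 4.93 and 0 to 0.657 TPM. Serpina3l-ps was listed at 0 in all 40.

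The widening between 2 and 8 weeks was called for Serpina3h alone in the family (2.52, SE 0.46, limma adjusted p = 0.0350). This call was kept without CAC replicate 3 or NCAC replicate 2 of 2 weeks, CAC replicates 3 or 5 of 8 weeks, or NCAC replicates 1 or 3 of 8 weeks, and lost without any of the other 16 libraries (adjusted p up to 0.0852).

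Other serpins of the same clade, encoded beside the cluster or elsewhere, did not follow. Of 15 such genes 4 were tested, Serpina1a, Serpina1b, Serpina1c and Serpina1d, which encode forms of alpha-1-antitrypsin, and 0 were called in CAC against NCAC or mock at 6 or 8 weeks, none of them at an unadjusted p under 0.05 in limma. Serpina1b, the highest, held 3.68 ± 0.655 TPM in CAC and 3.25 ± 1.52 TPM in NCAC fat at 6 weeks (SD, n = 5 each). The list median of the log2 differences between CAC and NCAC was 0.01 at 6 weeks and 0.15 at 8 weeks, beside 0.13 and -0.03 over all genes tested and 2.85 and 2.93 over the tested members.

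Proteases that serpins of this kind can meet were mostly not called. Of 15 proteases 12 were tested in CAC against NCAC. None passed at 6 weeks, where 4 had an unadjusted p under 0.05, and at 8 weeks only Prtn3, the neutrophil serine protease proteinase 3, was called (2.58, SE 0.40, limma adjusted p = 0.0205; 36.3 ± 15.0 against 5.06 ± 2.75 TPM, SD). Over all genes, 3825 of 14576 had an unadjusted p under 0.05 in this comparison at 6 weeks, and 0.343% were called higher at 8 weeks. The list medians were -0.01 at both weeks. Against mock at 8 weeks, Prtn3 and the adipocyte protease Cfd (adipsin) were called higher. Of 6 neutrophil markers 4 were tested and 1, the receptor Csf3r, was called higher at 6 weeks in CAC against NCAC, beside 4.94% of all genes. The sum of all 6 lay between 17.3 and 58.1 TPM in CAC and 9.78 and 29.1 TPM in NCAC fat at 6 weeks. At 8 weeks it lay between 7.19 and 56.8 TPM in CAC and 11.3 and 27.9 TPM in NCAC fat.

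Genes of the interleukin-6 family and STAT3, which drive the cluster in liver, were partly higher. Of 15 genes 13 were tested in CAC against NCAC, and at 6 weeks 3 rose and 1 fell, beside 4.94% of all genes called higher and 123 genes called lower. They were the feedback inhibitor Socs3 (1.80, SE 0.37, limma adjusted p = 0.0240), the oncostatin M receptor Osmr (1.77, SE 0.24, adjusted p = 0.00330), Stat3 itself (1.45, SE 0.20, adjusted p = 0.00382) and, falling, the cytokine Lif (-1.36, SE 0.29, adjusted p = 0.0244). At 8 weeks Socs3 (2.05, SE 0.37, limma adjusted p = 0.0374) and Osmr (1.63, SE 0.32, adjusted p = 0.0442) rose, beside 0.343% of all genes. The median of the list was 0.44 at 6 weeks and 0.62 at 8 weeks. Against mock, 0 were called at 6 weeks (6 had an unadjusted p under 0.05, beside 1377 of all 14571 genes), and at 8 weeks Osmr was called higher and Lif lower.

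Glucocorticoid genes showed 2 higher calls of 10 tested in CAC against NCAC at each late week, beside 4.94% and 0.343% of all genes. At 2 weeks 0 were called in limma, with a median of -0.76 and 6 of 10 at an unadjusted p under 0.05, beside 528 of all 14572 genes. Fkbp5, a direct target of the receptor, rose by 2.93 (SE 0.40, limma adjusted p = 0.00408) at 6 weeks and 3.60 (SE 0.61, adjusted p = 0.0266) at 8 weeks. Hsd11b1, the enzyme that makes active glucocorticoid inside cells, rose by 2.56 (SE 0.36, limma adjusted p = 0.00427) and 1.77 (SE 0.19, adjusted p = 0.00202). The receptor gene Nr3c1 differed by -0.45 (SE 0.16, adjusted p = 0.113) and -0.63 (SE 0.16, adjusted p = 0.0890). Against mock, Fkbp5 was called at 6 weeks, and Fkbp5, Hsd11b1 and Tsc22d3, a further receptor target, at 8 weeks. Of 14 interferon and NF-kB genes, a pathway known to induce Serpina3g, 0 were called in CAC against NCAC at 6 or 8 weeks. Their medians were 0.20 and 0.01, and 5 and 4 had an unadjusted p under 0.05. Over all genes 3825 of 14576 and 2342 of 14577 did.

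Markers of other cells were compared in the same way. Of the liver markers 4 of 8 were tested, and Alb fell by 2.69 at 6 weeks and 2.49 at 8 weeks on the log2 scale in CAC against NCAC (limma adjusted p = 0.00480 and 0.0353), from 19.9 ± 12.7 and 14.6 ± 8.75 TPM in NCAC to 1.88 ± 0.910 and 1.65 ± 1.30 TPM in CAC fat (SD). Over the 4 tested liver markers the median log2 difference between CAC and NCAC was -0.12 at 6 weeks and 0.74 at 8 weeks. At 8 weeks 3 of these 4 had an unadjusted p under 0.05 in limma, beside 2342 of 14577 genes. The liver sum in late CAC libraries was 3.64 to 37.2 TPM. CAC replicates 1 and 6 of 8 weeks held 37.2 and 33.5 TPM, with Alb at 0.122 and 0.312 TPM. They also had the highest Serpina3 sums, 4919 and 5247 TPM. Among 6 adipocyte, 6 macrophage, 6 stromal and 4 mesothelium markers 0 were called in limma in CAC against NCAC at 6 or 8 weeks (2, 0, 3 and 2 had an unadjusted p under 0.05 at 6 weeks), and of 4 endothelium markers Tie1 was called at 6 weeks. Over all 14576 genes at 6 weeks, 3825 had an unadjusted p under 0.05, 4.94% were called higher and 123 genes were called lower. The adipocyte sum was 31287 to 41022 TPM in CAC and 29454 to 43956 TPM in NCAC fat at 6 weeks. Macrophage markers summed to 333.9 to 702.8 TPM and 173.6 to 813.7 TPM. Against mock at 8 weeks the stromal genes Col1a1, Lum and Dpt and the mesothelium gene Msln were called lower, among the 290 genes called lower in that comparison. What these cells contribute to the Serpina3 levels was not tested.

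Members differed in how closely they tracked each other from library to library. After group means were removed, Pearson's r over the 62 libraries was 0.86 for Serpina3c with Serpina3n, 0.77 for Serpina3m with Serpina3n, 0.67 for Serpina3i with Serpina3n and 0.60 for Serpina3k with Serpina3m. Serpina3k was close to unrelated to Serpina3n (0.16) and Serpina3c (0.02) on this scale, although over the 12 group means its r with them was 0.94 and 0.93. Serpina3g had r between -0.28 and 0.39 with the other 5 tested members within groups. These are descriptions, since the values share libraries and their scaling.

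The gene whose 12 group means were most like those of Serpina3n was Hp, which encodes the acute phase protein haptoglobin, with r = 0.983 over 12 groups and 0.89 within groups over 62 libraries. Its group means ran from 436.7 to 9271 TPM. Next came Tmem87b (0.982), Rtn4rl2 (0.980), Sptbn5 (0.979) and the pseudogene Cyp21a2-ps (0.978). For the Serpina3 sum the closest 4 were Tmem87b, Cyp21a2-ps, Hp and Rtn4rl2. Genes most like Serpina3g were Egfr (0.886), Fam214b (0.879), Setd7 (0.876), Slc35e4 (0.868) and Il27ra (0.866). Their r within groups was 0.65, 0.40, 0.50, 0.58 and 0.81 in that order. Neighbouring group means of Serpina3g differed by no more than the SD, so nothing is read from its list. All genes named here were picked as the highest of the tested genes over only 12 means. That search favours a high r, and none was tested.

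Serpina3c and Serpina3n, the pair with the highest r within groups, also have promoters that are almost the same, which is why both are shown. Over the 12 group means Serpina3m was closer to Serpina3n (r = 0.994) than Serpina3c was (0.967). The 250 bases before each start site come from RefSeq on GRCm38.p6, at chr12:104406458-104406707 on the plus strand for Serpina3n and chr12:104153873-104154122 on the minus strand for Serpina3c. They are 92.7% identical over 247 aligned bases, and capitals mark the 21 bases in each that differ or have no partner.
Serpina3n: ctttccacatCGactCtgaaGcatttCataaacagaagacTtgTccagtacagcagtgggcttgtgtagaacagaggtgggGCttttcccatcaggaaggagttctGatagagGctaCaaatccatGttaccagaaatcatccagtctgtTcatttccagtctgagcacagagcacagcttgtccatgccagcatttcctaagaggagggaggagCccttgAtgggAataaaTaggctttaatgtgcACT
Serpina3c: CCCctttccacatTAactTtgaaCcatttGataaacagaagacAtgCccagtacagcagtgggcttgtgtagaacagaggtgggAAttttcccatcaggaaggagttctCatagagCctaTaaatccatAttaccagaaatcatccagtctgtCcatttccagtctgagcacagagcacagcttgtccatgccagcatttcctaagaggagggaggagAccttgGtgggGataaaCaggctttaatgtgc
Among the 5 members with a promoter in that table (Serpina3c, Serpina3f, Serpina3g, Serpina3i and Serpina3n) the other pairs were 57.2% to 79.5% identical. Serpina3k and Serpina3m had none there and could not be compared. The window of Serpina3g ends at chr12:104236146, short of its GENCODE gene start at 104236245, and its pairs align over 153 to 181 bases. Its identities, motif positions and lack of a match are therefore not set on the same stretch as in the other members. Motifs, 4 in all, were searched on both strands: TTCNNNGAA for STAT factors, ACA and TGT 3 bases apart, each with any base and then an outer G or C, for the glucocorticoid receptor, TTGCNNAA for C/EBP factors, and GAAA followed by GAAA after any 2 bases for interferon response factors. They occur in 7.02%, 0.387%, 9.56% and 2.98% of 32851 promoters of the same length, in that order. Serpina3c and Serpina3n both hold the letters searched for the glucocorticoid receptor, in the same form GCACAGCTTGTCC, 75 to 63 bases before the start of Serpina3c and 78 to 66 bases before that of Serpina3n, in a stretch without a difference between them. The STAT letters occur in Serpina3f (TTCCTAGAA, 121 to 113 bases before the start) and, as TTCCCAGAA, in Serpina3g (33 to 25 bases) and Serpina3i (102 to 94 bases). Serpina3f holds the C/EBP letters at 2 positions, and none of the 5 holds the interferon letters. No matches overlap, and a match of letters is a description of the sequence, not of binding.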

How the data were processed

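White adipose tissue was sequenced with a stranded TruSeq mRNA kit on a NovaSeq 6000, per the labels' protocols. The authors deposited 1 table of TPM for 62 libraries, with mm10 as the genome build per the submitters' processing notes. Aligner, counter, annotation and read depth were not given in the sources used here. Groups came from the sample descriptions. The members and lists were chosen with earlier results of these data known. Genes averaging 0.5 TPM or more over all libraries were tested on log2(TPM + 1) with limma 3.58.1 in R 4.3.3 (trended, robust variance; 2 groups in a fit, 4 for the change with time), with Benjamini-Hochberg adjustment over all genes and a threshold of 0.05. A fold on that scale understates changes of low genes. No 2 libraries were identical. On simulated data for CAC against NCAC at 6 weeks, 93 of 100 genes changed by 2 on the log2 scale and 69 of 100 changed by 1 were recovered, among 14576 genes. At 8 weeks these were 91 and 58 of 100, among 14577. False calls numbered 7 at 6 weeks and 10 at 8 weeks. Noise was normal, and changed genes were drawn only from those with a mean log2(TPM + 1) of at least 2. Recovery of lower genes is therefore not covered. Genes named were the members, all other Serpina3 symbols, up to 2 called genes in each direction of each list, and the 5 genes most alike by Pearson's r over group means (Serpina3n, the sum, Serpina3g), leaving out predicted genes (1 gene alike to the sum is not reported here); other named list genes were chosen after their values were seen. Sequences were aligned with mafft 7.526 from GENCODE M21 (GRCm38) and RefSeq (GRCm38.p6). Alternatives were another pseudocount (0.1 TPM), filter (none, 2 TPM), scaling, variance prior, shared fit, library weights, replicate block, urothelium covariate, omission of libraries over 100 TPM of urothelium markers, and omission of each library.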

Additional observations from a re-analysis of the deposited data

Results flagged for a closer look

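In mock fat at 6 weeks, replicate 5 stood apart from the other 4 libraries for Serpina3g (22.6 TPM against 2.72 to 4.45) and for Serpina3i (1.54 TPM against 0.354 to 0.497). These were 2 of 96 groups examined, and chance alone marks about 1 in 20. The same library held 351.5 TPM of liver markers, the highest of all 62, and had the lowest mitochondrial share (17.2%).

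The difference between CAC and NCAC fat was itself different at 6 and 2 weeks for 4 members in limma: by 2.36 for Serpina3c, 2.47 for Serpina3i, 3.70 for Serpina3m and 3.76 for Serpina3n on the log2 scale. The members were chosen with the high level of the cluster in CAC fat at 6 and 8 weeks known, so these tests favour them. Between 8 and 2 weeks it differed for Serpina3h, by 2.52.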

How the results depend on the processing

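The log2 difference of the Serpina3 sum moved by less than the spread between libraries under each alternative run, and counts of called members moved by over 1.5 times in these cases. CAC against mock at 6 weeks went from 4 to 2 with the replicate block and to 2 without libraries over 100 TPM of urothelium markers; at 8 weeks it went from 5 to 2 and 0 under the same settings. CAC against NCAC at 6 weeks went from 5 to 3 with the urothelium covariate and 2 without those libraries. At 8 weeks it went from 4 to 2 without a filter, to 0 with the replicate block, the covariate or those libraries left out, and to between 0 and 5 on leaving out single libraries. NCAC against mock at 6 weeks went from 0 to 1 with library weights. The change from 2 to 6 weeks went from 4 to 0 without the urothelium libraries. That from 2 to 8 weeks went from 0 to 1 without mitochondrial genes, 1 with median-ratio scaling, 4 with all 62 libraries in 1 fit, 5 with library weights and 0 to 5 on leaving out single libraries. Leaving out libraries and adding covariates also lowers the number of residual degrees of freedom; the cause of the other shifts was not tested. Single genes were refitted for CAC against mock and NCAC at 6 and 8 weeks and for both changes with time, and among these only Serpina3g, never called, changed sign. Leaving out single libraries gave -0.46 to 0.013 in CAC against NCAC at 6 weeks (0.013 without NCAC replicate 3), -0.042 to 0.43 at 8 weeks (-0.042 without NCAC replicate 3) and -0.051 to 0.47 in the change from 2 to 6 weeks (-0.051 without NCAC replicate 4 of 2 weeks). It was 0.083 in CAC against mock at 8 weeks with library weights and -0.082 in the change from 2 to 6 weeks without the urothelium libraries. The sum, which has no test, crossed 0 on leaving out single libraries in CAC against mock at 2 weeks (-0.31 to 0.013), NCAC against mock at 2 weeks (-0.090 to 0.31) and CAC at 8 against 6 weeks (-0.19 to 0.41). Same-numbered samples share only a number, so the replicate block is not a pairing: in CAC against NCAC, same-numbered libraries deviated together with r from -0.01 to 0.25 at 6 weeks and from -0.04 to 0.53 at 8 weeks, and 1 and 3 of 5 libraries correlated best with their own number. The lack of read counts limits what can be said of Serpina3f, Serpina3i and other low genes.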
